A study of Sus scrofa with 32 samples.

Results

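The left anterior descending coronary artery (LAD) of 5 obese pigs was compared with that of 6 lean pigs across all genes of a porcine Affymetrix array. The arrays were those titled as LAD, 11 of the 32 arrays of the series, with the arrays of perivascular fat set aside. Of 14327 deposited probe sets, 10029 were tested. All animals were Ossabaw miniature swine, a strain prone to obesity, killed at 22 weeks of age after 16 weeks on their diet. The lean group received commercial low-fat feed, and the obese group a diet rich in fat, high fructose corn syrup and cholesterol. Fat, sugar and cholesterol therefore differed together between the groups. Each pig gave 1 LAD array, so the replicates are separate animals. The artery had been cleaned of surrounding fat and excess adventitia, and RNA came from the whole remaining wall. The same pigs also gave an array of the fat beside the LAD (PVAT, 11 arrays) and of the descending thoracic aorta (TA, 10 arrays).

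The coronary wall is mainly smooth muscle lined by endothelium, with fibroblasts and resident macrophages in its outer layer. When cholesterol-rich lipoproteins enter an artery wall, macrophages take them up and break them down in lysosomes. In cells loaded with cholesterol the nuclear receptor LXR switches on genes of cholesterol export, while the factor SREBP2 is held back and the genes of cholesterol synthesis are read less. Interferons, by a separate route, switch on a set of antiviral genes in nearly any cell type.

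Values are deposited log2 signals per probe set, and a difference of 1 is a doubling. A gene passed when its limma test (moderated, two-sided) had a Benjamini-Hochberg adjusted p under 0.05 over all 10029 probe sets, which 4 probe sets did in the higher direction (0.0399%) and 0 in the lower. Without adjustment, 1720 probe sets (17.2%) had a p under 0.05, and 21 (0.209%) had an adjusted p under 0.1. Of the 1720, 551 (5.49% of all tested) were higher and 1169 (11.7%) lower in obese pigs, so 32% were higher. That split depended on scaling, since 50.9% were higher with each array centred on its median (773 against 747) and 48.2% after quantile normalization (751 against 806). The median difference over all probe sets moved from -0.058 to -0.024 and -0.03. For lists of genes, each gene was taken once, which left 6694 genes, of which 5.96% were higher and 10.7% lower at an unadjusted p under 0.05. Some genes, such as SPP1, CTSS, CYBA and CSF1, belong to more than 1 list, so counts of different lists are not independent. All 5 obese pigs lay above all 6 lean pigs for 1.4% of the genes and below them for 1.42%.

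The arrays carried the signature of a muscular artery. MYH11, the smooth muscle myosin heavy chain, averaged 14.37 ± 0.07 on the log2 scale over the lean arrays (SD, n = 6) and 14.30 ± 0.02 over the obese arrays (SD, n = 5). Smooth muscle actin ACTA2, named only by the platform annotation, was at 14.14 in lean pigs and differed by 0.01. RNA quality, as the ratio of 28S to 18S ribosomal RNA, was 1.305 ± 0.117 in lean and 1.094 ± 0.404 in obese LAD (exact permutation p = 0.303, two-sided). Obese pigs 55 and 57 had ratios of 0.69 and 0.63, and the other 9 pigs 1.13 to 1.47. Heart muscle genes varied widely within both groups, their mean over 26 genes running from 8.30 to 12.38 in lean and 8.01 to 11.64 in obese LAD. Adipocyte genes (7 tested) had means of 8.87 to 10.20 in lean and 8.86 to 9.67 in obese LAD. The lists for neutrophils, B or plasma cells and T or NK cells had no tested gene. The part of RNA quality and of heart muscle in the results below was not tested beyond the values given. In a whole wall, fewer cells of a type and less RNA per cell cannot be told apart.

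SMPDL3A, SPP1, C1QA and CXCL14 were the 4 genes that passed, all higher in obese pigs. Their adjusted p by limma was the same, 0.0482. SMPDL3A encodes a secreted phosphodiesterase that is a known LXR target in macrophages. Its lean signals ran from 5.81 to 7.71 with a median of 6.92, and obese pigs 51, 55, 57, 81 and 85 were at 12.46, 12.22, 9.55, 9.40 and 11.11. The lowest obese pig lay well above the highest lean pig, and pigs 51 and 55 stood above the other obese pigs. The difference was 4.15 (SE 0.57), or 17.8-fold. The lean mean of 6.79 was close to 6.64, an intensity of 100 before the log. Lean pigs 56 (5.81) and 63 (6.37) lay below that intensity, so the fold rests on dim lean signals. Within sacrifice dates 1, 2 and 3 the difference was 4.79, 5.47 and 3.06. Date 1 had 2 obese and 2 lean pigs, date 2 had 1 and 1, and date 3 had 2 and 3. Date 2 was obese pig 51 against lean pig 48. The obese pigs of date 1 were 55 and 57, those of low 28S to 18S ratio.

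SPP1 encodes osteopontin, a secreted phosphoprotein of the matrix. Lean pigs ran from 10.04 to 10.80 with a median of 10.26, and the obese pigs, in the same order, were at 13.40, 13.67, 12.40, 11.91 and 11.76. The groups were apart, pigs 81 and 85 lay nearest to the lean range, and the difference was 2.30 (SE 0.33). C1QA, the A chain of the complement starter C1q, ran from 7.85 to 8.45 (median 8.14) in lean pigs and was at 10.27, 9.86, 9.26, 9.18 and 10.28 in obese pigs. Here pig 85 was as high as pig 51, and the difference was 1.61 (SE 0.22). The chemokine CXCL14 had 2 probe sets. On the one that passed, lean pigs ran from 6.98 to 7.81 (median 7.50), obese pigs were at 11.55, 11.45, 9.22, 9.29 and 10.22, and the difference was 2.88 (SE 0.42). The brighter one also kept the groups apart, with a difference of 2.26 (SE 0.40) and an adjusted p of 0.069. The calls were close to the threshold. All 4 probe sets missed it without any 1 of pigs 48, 51, 55, 56, 63, 73, 80, 85 and 86, without pigs 55 and 57 together, and with the 28S to 18S ratio or the heart muscle mean as a covariate. All 4 passed without pig 57 (102 probe sets passing) or pig 81 (106), and in 1 fit of all tissues with the pig as a replicate block (90). With sacrifice date as a block 5 probe sets were called higher and 4 lower, and the CXCL14 probe set was not among them (adjusted p 0.0647). The differences of the 4 kept their direction in every one of these settings, with C1QA between 1.48 and 1.75, SMPDL3A between 3.78 and 4.54, SPP1 between 1.93 and 2.51 and CXCL14 between 2.58 and 3.16.

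**Figure D1:**
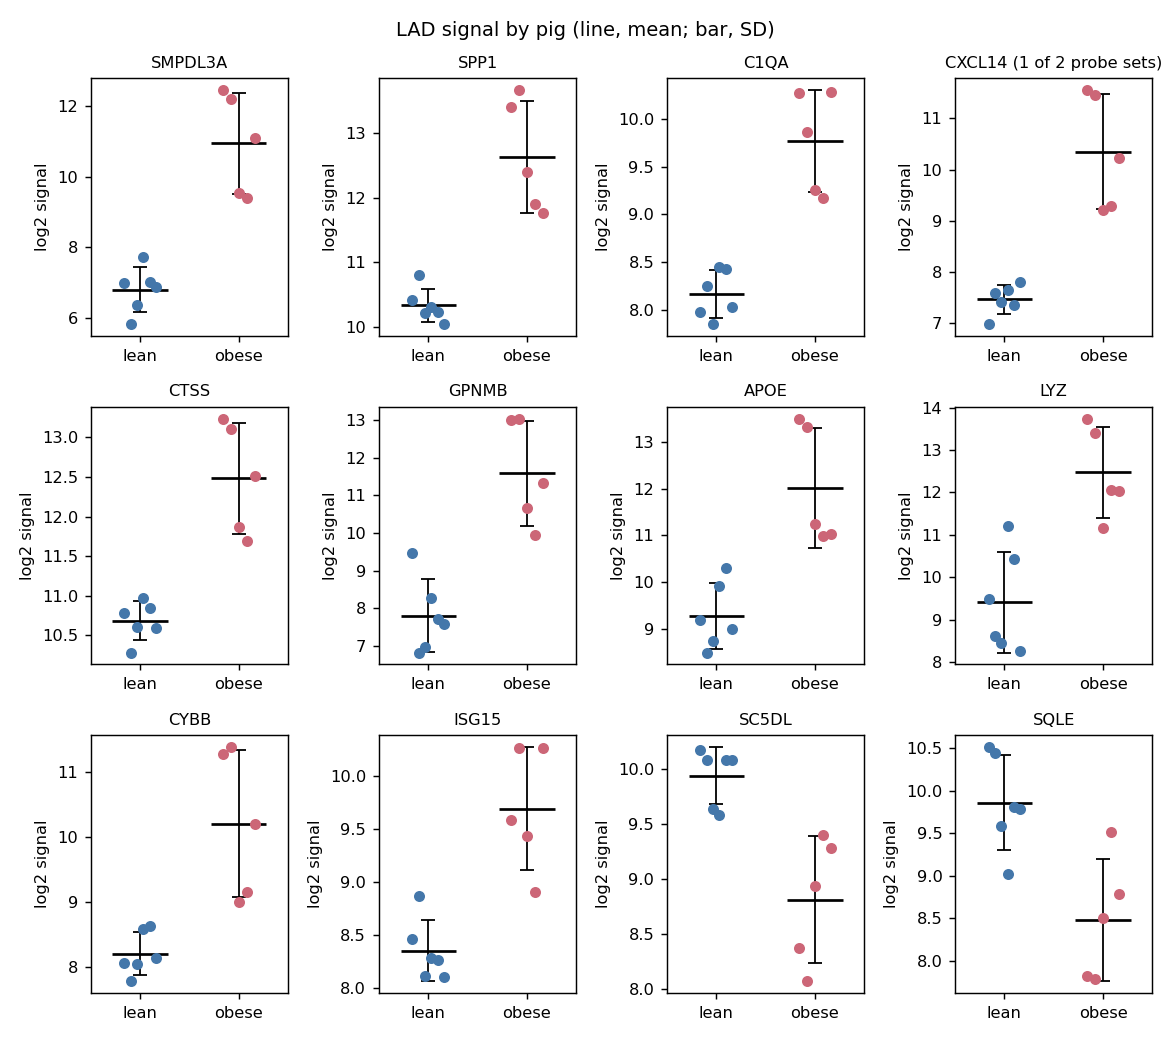
Log2 signal of 12 genes in the LAD of each lean (blue, n = 6) and obese (red, n = 5, from left pigs 51, 55, 57, 81 and 85) pig, with the mean (line) and SD (bar). The obese points of SMPDL3A, SPP1, C1QA and CXCL14 all lie above the lean points, and pigs 51 and 55 are the highest obese pigs for most genes and the lowest for SC5DL and SQLE.

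Macrophage genes were higher in nearly every tested member. Of 40 listed genes, 26 were in the table and 21 were tested. No gene of the neutrophil, B or plasma cell, and T or NK cell lists was tested. These counts therefore cannot tell macrophages from other leukocytes. SPP1 and C1QA passed, against 0.0448% of all genes in that direction, and 20 were higher at an unadjusted p under 0.05 against 5.96% of all genes, and 0 were lower. In 14 of the 21 every obese pig was above every lean pig, against 1.4% of all genes. The median difference was 1.52 against -0.05 for all tested genes. Within dates 1, 2 (1 obese and 1 lean pig) and 3 the median of the list was 1.51, 2.30 and 0.82. Without the arrays of pigs 55 and 57, 19 of 21 stayed higher at an unadjusted p under 0.05. The 1 member not at that p was FOLR2, a folate receptor of resident macrophages, at -0.22 (SE 0.18).

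The other C1q chains ran alongside C1QA. C1QB ran from 9.65 to 10.54 (median 9.91) in lean pigs and was at 12.38, 11.82, 10.77, 11.17 and 11.70 in obese pigs, a difference of 1.57 (adjusted p 0.069). C1QC ran from 9.46 to 10.29 (median 9.84) and was at 12.51, 11.89, 10.59, 11.00 and 11.69, a difference of 1.68 (adjusted p 0.069). For all 3 chains every obese pig exceeded every lean pig. VSIG4, a complement receptor of resident macrophages, differed by 1.83 (SE 0.40, adjusted p 0.106), with pigs 51 and 55 at 11.78 and 11.69, the other obese pigs from 9.75 to 10.37 and lean pigs from 8.22 to 9.47. CD163, the scavenger receptor for haemoglobin complexes, differed by 1.11 (SE 0.22, adjusted p 0.102), and the Fc receptor gamma chain FCER1G by 2.02 (SE 0.42, adjusted p 0.102). For both the groups were apart. The receptor for the growth factor CSF1, CSF1R, differed by 0.64 (SE 0.18, adjusted p 0.169) with overlapping groups.

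GPNMB, a glycoprotein of lipid-laden and lysosome-rich macrophages named here only by the platform annotation, had a difference of 3.79 (SE 0.63, adjusted p 0.069). Lean pigs ran from 6.82 to 9.47 with a median of 7.65, and the obese pigs were at 13.01, 13.04, 10.66, 9.94 and 11.32. The secreted lectin LGALS3 (galectin-3) differed by 2.46 (SE 0.43, adjusted p 0.069), with lean pigs from 8.72 to 9.94 (median 9.35) and obese pigs at 12.90, 12.87, 10.76, 10.59 and 11.60. In both genes the groups were apart and the order of the obese pigs was led by 51 and 55. LYZ, which encodes lysozyme, differed by 3.07 (SE 0.61, adjusted p 0.102), but its groups touched. The highest lean pig, at 11.21, was just above obese pig 57 at 11.15. PLA2G7, a lipoprotein-associated phospholipase, differed by 2.55 (SE 0.64, adjusted p 0.146). Its lean pigs lay from 6.37 to 8.94 with a median of 6.54, and obese pigs were at 10.99, 10.96, 8.95, 7.78 and 8.84. Pig 63 alone made the overlap among the lean pigs. The actin-bundling leukocyte protein LCP1 differed by 2.27 (adjusted p 0.122), BASP1 by 2.10 (adjusted p 0.106) and the ubiquitin ligase RNF128 by 2.03 (adjusted p 0.102). AMBN, which encodes the enamel protein ameloblastin, was also among the largest differences at 3.05 (SE 0.53, adjusted p 0.069), with lean pigs from 6.66 to 7.63 (median 7.02) and obese pigs at 11.61, 11.57, 8.74, 8.73 and 9.97.

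Lysosomal genes were higher in smaller steps. Of 35 tested, 18 (51.4%) were higher at an unadjusted p under 0.05, against 5.96% of all genes, and 0 were lower. In 4 every obese pig was above every lean pig, against 1.4% of all genes. The median difference was 0.41, and 0 passed. Cathepsin S, CTSS, a protease that also trims the chaperone of MHC class II, missed the threshold with a difference of 1.80 (SE 0.27, adjusted p 0.0508). Its lean pigs ran from 10.28 to 10.98 (median 10.70) and its obese pigs were at 13.24, 13.11, 11.87, 11.70 and 12.51, all above the lean range. A dimmer probe set of CTSS differed by 2.42 (adjusted p 0.081). The lysosomal acid lipase LIPA, which frees cholesterol from its esters, differed by 1.39 (SE 0.30, adjusted p 0.104), with lean pigs from 9.35 to 9.63 and obese pigs at 11.80, 11.64, 10.04, 10.11 and 10.71. Cathepsins D (CTSD, 1.49), Z (CTSZ, 1.23), H (CTSH, 1.09) and B (CTSB, 0.55) had adjusted p values of 0.162, 0.156, 0.159 and 0.159. The cholesterol carriers of the lysosome differed less, NPC2 by 0.57 and NPC1 by 0.39 (adjusted p 0.209 and 0.334). The bone and fibroblast cathepsin CTSK was at 0.29 (adjusted p 0.486) and the membrane protein CD63 at 0.10 (adjusted p 0.557).

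Receptors and enzymes of phagocytes followed the same order of pigs. All 9 tested genes had a positive difference, 7 of them (77.8%) at an unadjusted p under 0.05, against 5.96% of all genes. The median was 0.85, and 0 passed. CYBB, the catalytic chain of the phagocyte NADPH oxidase, ran from 7.78 to 8.62 (median 8.10) in lean pigs and was at 11.27, 11.38, 8.99, 9.15 and 10.19 in obese pigs. The groups were apart, with a difference of 1.99 (SE 0.42, adjusted p 0.102). Its partner CYBA differed by 0.75 and NCF1, an organizing subunit, by 0.47 (adjusted p 0.206 and 0.21). The Fc receptor FCGR3A differed by 1.11 (adjusted p 0.106), the endotoxin receptor TLR4 by 1.38 (adjusted p 0.146), TLR2 by 0.85 (adjusted p 0.235) and the inflammatory protease CASP1 by 0.99 (adjusted p 0.156). The adaptor MYD88 was at 0.22 and the TLR4 partner LY96 at 0.18, neither below an unadjusted p of 0.05. In all 9 genes pigs 51 and 55 were the highest obese pigs, as they were in 18 of the 21 macrophage and 25 of the 35 lysosomal genes (85.7% and 71.4%). The same held for 17.2% of all tested genes and for 77.9% of the 399 genes that were higher at an unadjusted p under 0.05, so this order was shared by most higher genes.

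Among 14 tested chemokine, cytokine and adhesion genes, 7 (50%) were higher at an unadjusted p under 0.05, against 5.96% of all genes. The median was 0.30, and 0 were lower at that p. CXCL14 is a member through the brighter of its probe sets. The monocyte attractant CCL2 ran from 8.56 to 9.48 (median 8.93) in lean pigs and was at 10.05, 9.89, 9.07, 9.53 and 10.33 in obese pigs, with overlapping groups, and differed by 0.82 (SE 0.22, adjusted p 0.159). The chemokine receptor CXCR4 differed by 1.26 (adjusted p 0.195), and the macrophage growth factor CSF1 by 0.56 (adjusted p 0.19). The endothelial adhesion molecule VCAM1 differed by 0.55 (SE 0.20, adjusted p 0.226). The homeostatic chemokine CXCL12 was at -0.41 (adjusted p 0.531), and the neutrophil attractant CXCL2 at -0.06.

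Antigen presentation genes with higher signals belonged to both MHC classes. Of 17 tested, 13 (76.5%) were higher at an unadjusted p under 0.05, against 5.96% of all genes. In 7 every obese pig was above every lean pig, against 1.4% of all genes. The median was 0.60, and 0 passed. The thiol reductase IFI30 differed by 1.36 (adjusted p 0.162) and the class II peptide loader HLA-DMB by 1.24 (adjusted p 0.146). Class II chains HLA-DRA and HLA-DRB1 each differed by 0.60, and CD74, the class II chaperone, by 0.47 (adjusted p 0.134) with groups apart. On the class I side, HLA-B differed by 0.56 (SE 0.11, adjusted p 0.102), with lean pigs from 11.50 to 11.85 and obese pigs at 12.43, 12.64, 12.10, 12.00 and 12.28. The peptide transporter TAP1 differed by 0.63 (adjusted p 0.104) and the immunoproteasome subunit PSMB9 by 0.67 (adjusted p 0.102). The proteasome activators PSME1 and PSME2 were at -0.03 and 0.10. Porcine probe sets carry human HLA symbols here, and near-identical chains cannot be told apart.

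Most interferon response genes were higher. Of 20 tested, 17 (85%) were higher at an unadjusted p under 0.05, against 5.96% of all genes, and 0 passed. In 8 every obese pig was above every lean pig, against 1.4% of all genes. The median was 0.55, or 0.67, 0.77 and 0.48 within dates 1, 2 and 3. ISG15, a ubiquitin-like antiviral modifier, ran from 8.11 to 8.87 (median 8.28) in lean pigs and was at 9.59, 10.26, 9.44, 8.90 and 10.27 in obese pigs. Pigs 55 and 85 were highest and pig 81 lay just above the lean range. The difference was 1.34 (SE 0.24, adjusted p 0.069). OAS1, a sensor of double-stranded RNA, was at 9.47, 9.80, 8.66, 7.88 and 9.18 in obese pigs against 7.17 to 7.81 in lean pigs, a difference of 1.51 (SE 0.29, adjusted p 0.102). SAMD9, an antiviral effector, was at 8.97, 9.25, 8.51, 8.46 and 8.88 against 7.83 to 8.20, a difference of 0.77 (SE 0.14, adjusted p 0.069). RSAD2, the antiviral enzyme viperin, had the largest difference of the list at 1.83 (SE 0.41, adjusted p 0.106), and its groups overlapped. Of the signal transducers, IRF9 was at 0.48 (adjusted p 0.102) and STAT2 at 0.24 (adjusted p 0.458). XAF1 was at -0.32 (adjusted p 0.441). Pigs 51 and 55 were the highest obese pigs in 7 of the 20 genes (35%).

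**Figure D2:**
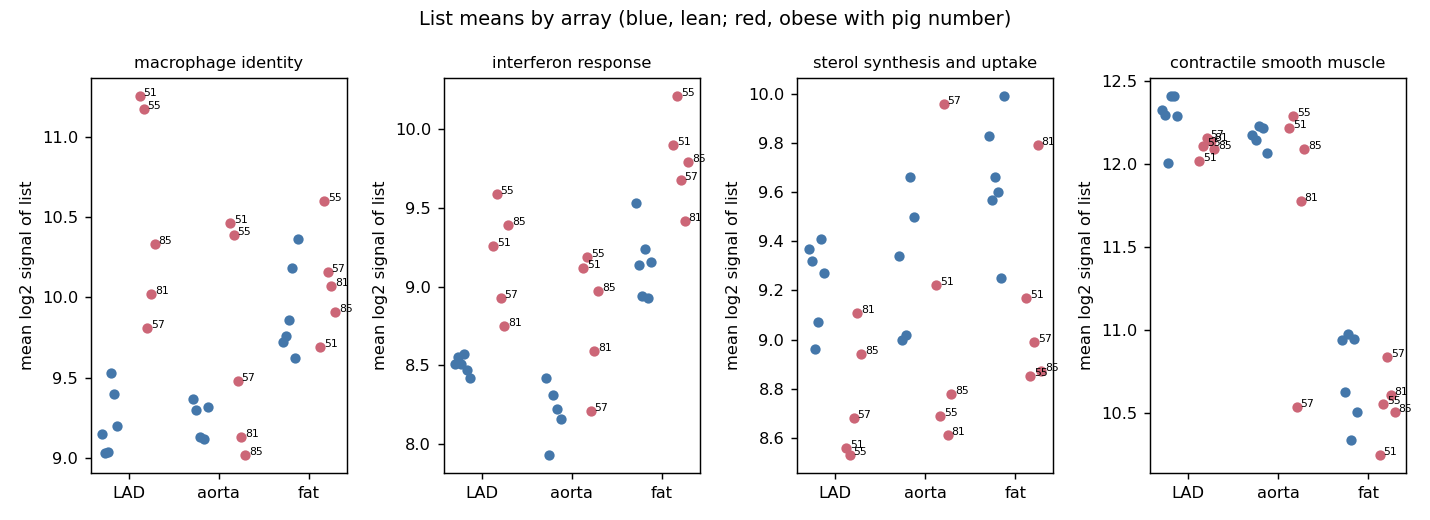
Mean log2 signal of 4 gene lists in each array, by tissue (LAD, thoracic aorta, perivascular fat), lean in blue and obese in red with the pig number. In the LAD the obese pigs are all above the lean pigs for the macrophage list (9.81 to 11.25 against 9.03 to 9.53) and the interferon list (8.75 to 9.59 against 8.42 to 8.57), while the sterol list (8.53 to 9.11 against 8.96 to 9.41) and the contractile list (12.02 to 12.16 against 12.01 to 12.41) overlap.

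The list mean of macrophage genes was 11.25, 11.17, 9.81, 10.02 and 10.33 in obese pigs 51, 55, 57, 81 and 85, against 9.03 to 9.53 in lean pigs. Pigs 51 and 55 were thus the farthest from the lean range and pig 57 the nearest. The interferon list mean was 9.26, 9.59, 8.93, 8.75 and 9.39 against 8.42 to 8.57, with pig 81 nearest. The sterol list mean was 8.56, 8.53, 8.68, 9.11 and 8.94 against 8.96 to 9.41, so pigs 51 and 55 were lowest and pig 81 was within the lean range. Pig 51 had a 28S to 18S ratio of 1.26 and pig 55 of 0.69. The mean of the heart muscle genes was 10.78 and 10.46 in these pigs, inside the lean range.

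Among 16 tested LXR target and efflux genes, 12 had a positive difference and SMPDL3A was the 1 that passed, against 0.0448% of all genes. Of the 16, 8 (50%) were higher at an unadjusted p under 0.05, against 5.96% of all genes, and 0 were lower. In 5 every obese pig was above every lean pig, against 1.4% of all genes. The median was 0.48. ABCA1, which pumps cholesterol out of the cell onto apolipoproteins, ran from 9.49 to 10.04 (median 9.86) in lean pigs and was at 11.81, 11.82, 10.98, 10.51 and 10.89 in obese pigs. The groups were apart, with a difference of 1.39 (SE 0.23, adjusted p 0.069), and a dimmer ABCA1 probe set differed by 1.59 (adjusted p 0.102). APOE, the lipid carrier apolipoprotein E, ran from 8.49 to 10.30 (median 9.10) and was at 13.49, 13.32, 11.24, 10.98 and 11.03. The groups were apart, and the difference was 2.73 (SE 0.53, adjusted p 0.102) but 3.66, 4.29 and 1.26 within dates 1, 2 and 3. NR1H3, which encodes LXR alpha, ran from 7.73 to 8.06 in lean pigs and was at 9.06, 9.03, 8.12, 8.12 and 8.22 in obese pigs, so 3 obese pigs were within 0.2 of the lean range. Its difference was 0.62 (SE 0.19, adjusted p 0.187), while LXR beta (NR1H2) was at -0.10 and its partner RXRA at -0.05. PLTP, a phospholipid transfer protein (ICAM1 in the platform annotation of the brighter of its probe sets), differed by 0.63 (adjusted p 0.128). The ubiquitin ligase MYLIP, an LXR target, was at 0.18 (adjusted p 0.341), and CYP27A1, which makes an oxysterol, at -0.42 (adjusted p 0.439).

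Genes of sterol synthesis and uptake were lower as a list. Of 29 tested, 16 were lower at an unadjusted p under 0.05 against 10.7% of all genes, 0 were higher, 0 passed, and the median was -0.31. With each array centred on its median 16 were again lower, and without pigs 55 and 57 12 were. The median was -0.44, -0.63 and -0.20 within dates 1, 2 and 3. Following the pathway, the acetyl-CoA thiolase ACAT2 was at -0.63 and the HMG-CoA synthase HMGCS1 at -0.64 (adjusted p 0.204 and 0.182). The mevalonate kinase MVK was at -0.18 and the decarboxylase MVD at -0.07, while PMVK, the kinase between them, was at -0.70 (SE 0.11, adjusted p 0.069). PMVK was the steadiest member. It ran from 7.88 to 8.60 (median 8.42) in lean pigs and was at 7.64, 7.73, 7.80, 7.63 and 7.51 in obese pigs, all below the lean range, and its second probe set differed by -0.68 (adjusted p 0.069).

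The isoprenoid enzymes IDI1 and FDPS were at -1.13 and -0.71 (adjusted p 0.209 and 0.159), and the first committed enzyme of sterols, FDFT1, at -0.65 (adjusted p 0.147). SQLE, the squalene epoxidase, ran from 9.02 to 10.51 (median 9.79) in lean pigs and was at 7.82, 7.78, 8.50, 9.51 and 8.78 in obese pigs. Pig 81 was inside the lean range, and the difference was -1.38 (SE 0.34, adjusted p 0.14). Downstream, LSS was at -0.71, CYP51A1 at -0.94 and MSMO1 at -0.61 (adjusted p 0.194, 0.134 and 0.14). SC5DL, the sterol C5 desaturase, was the other member with groups apart. Lean pigs ran from 9.58 to 10.18 (median 10.08) and obese pigs were at 8.38, 8.08, 8.94, 9.40 and 9.29, a difference of -1.12 (SE 0.23, adjusted p 0.102). HSD17B7 was at -0.00 and EBP at -0.24.

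The regulators were mixed. SREBF2, which encodes SREBP2, was at -0.45 (SE 0.15, adjusted p 0.201). INSIG1, the sterol-regulated retention protein, was at 0.15 (SE 0.27, adjusted p 0.8), with pigs 51 and 55 highest at 10.15 and 10.21. Pigs 51 and 55 were the lowest obese pigs in 13 of the 29 sterol genes (44.8%). The same held for 14.4% of all tested genes and for 37.2% of the 713 genes that were lower at an unadjusted p under 0.05.

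**Figure D3:**
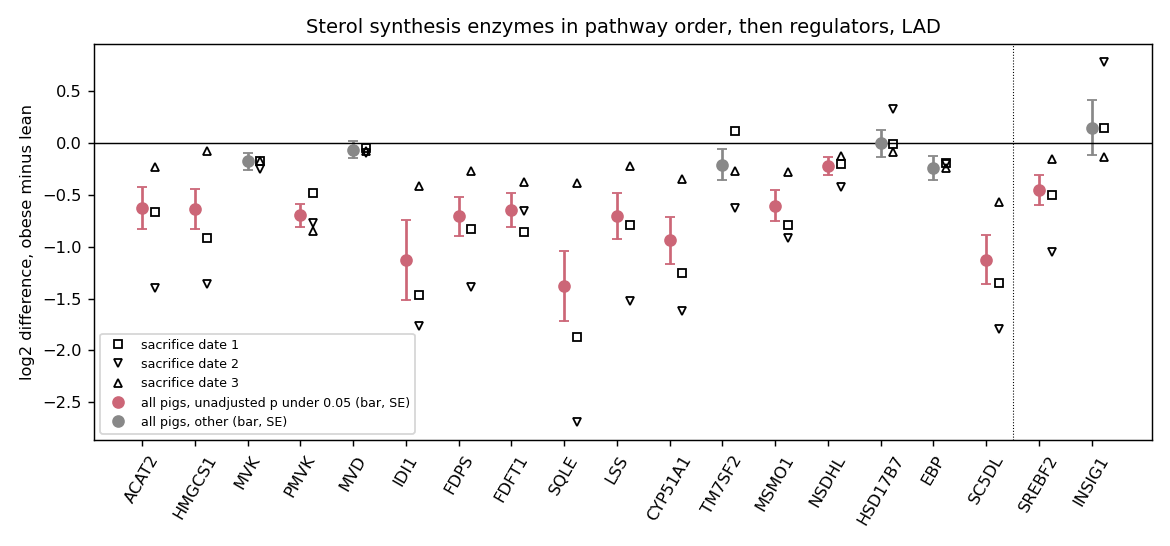
Log2 difference, obese minus lean LAD, of sterol genes in pathway order, then of the regulators SREBF2 and INSIG1 to the right of the dotted line. Filled points with SE bars are over all 11 pigs (red at an unadjusted p under 0.05), open symbols are within sacrifice dates 1 (2 obese, 2 lean pigs), 2 (1 and 1) and 3 (2 and 3). SQLE at -1.38 lies lowest, MVK, MVD and HSD17B7 lie near 0, and date 3 is nearest 0 for most genes.

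Of 17 fatty acid and triglyceride synthesis genes, 2 (11.8%) were higher and 1 (5.88%) lower at an unadjusted p under 0.05, beside 5.96% and 10.7% of all genes, and the median was 0.01. SCD, the stearoyl-CoA desaturase and both an LXR and an SREBP target, was at 12.10, 11.74, 10.39, 10.08 and 10.49 in obese pigs against 9.83 to 10.44 in lean pigs, a difference of 0.84 (SE 0.33, adjusted p 0.243). Only pigs 51 and 55 were clearly outside the lean range. The fatty acid synthase FASN was at -0.25 (adjusted p 0.258), ACLY at -0.09 and ACACA at -0.01. Of 30 fatty acid oxidation and PPAR target genes, 2 (6.67%) were higher and 0 lower at that p. CPT1A, the carnitine transferase that admits fatty acids into mitochondria, ran from 9.37 to 9.77 (median 9.53) in lean pigs and was at 10.41, 10.60, 10.37, 9.94 and 10.18 in obese pigs. Its groups were apart, pig 57 was close to pig 51, and the difference was 0.75 (SE 0.11, adjusted p 0.0508). ANGPTL4, an inhibitor of lipoprotein lipase, differed by 0.82 (adjusted p 0.134), and the lipid droplet coat protein PLIN2 by 0.45 (adjusted p 0.295).

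**Figure D4:**
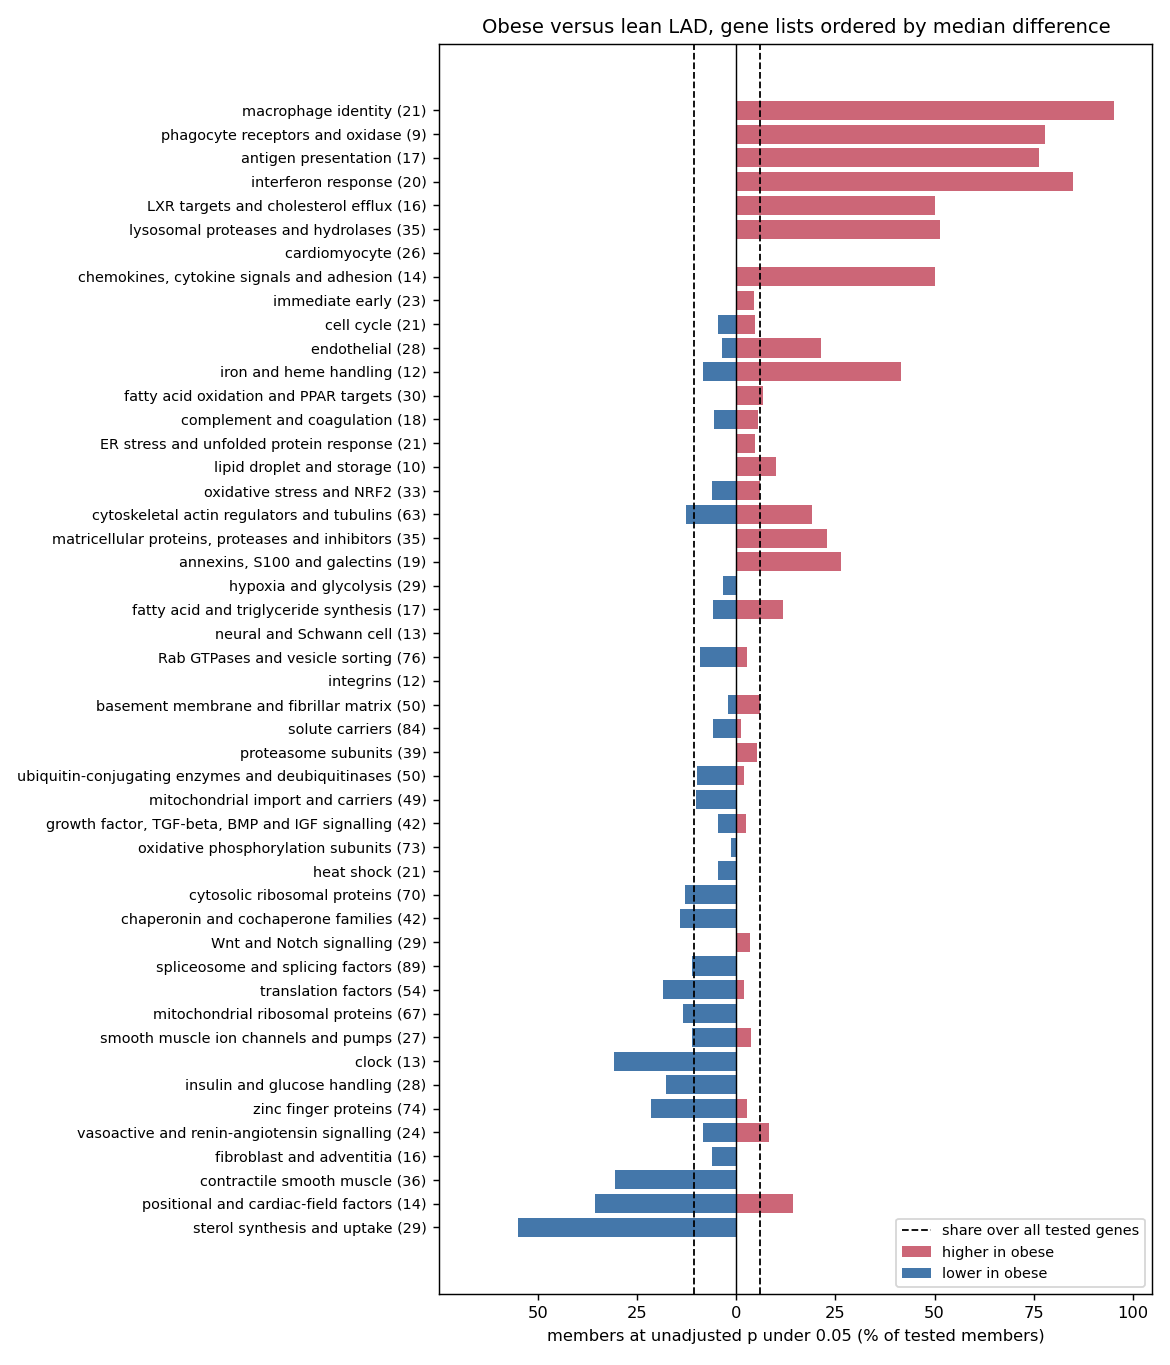
Share of the tested members of each gene list (number tested in brackets) that were higher (red) or lower (blue) in obese LAD at an unadjusted p under 0.05, ordered by the median difference of the list. Dashed lines give the shares over all tested genes, 5.96% higher and 10.7% lower. The macrophage list reaches 20 of 21 and the sterol list 16 of 29.

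Contractile smooth muscle genes had small differences. Of 36 tested, 34 were negative and 11 (30.6%) were lower at an unadjusted p under 0.05, against 10.7% of all genes. The median was -0.17, and 0 were higher at that p. With each array centred on its median, 7 were lower and the median was -0.14, and without pig 81 also 7 were lower. Of all 6694 genes, 431 and 943 were lower in these settings. In the fit of all tissues with the pig as a replicate block 2 of 36 were lower, beside 289 of all 6694 genes. SYNM, an intermediate filament protein (the platform annotation adds MYOZ2), was the 1 with groups apart. It ran from 11.96 to 12.71 in lean pigs and was at 11.85, 11.46, 11.90, 11.83 and 11.68 in obese pigs, a difference of -0.52 (SE 0.15, adjusted p 0.172). PGM5, a protein of muscle attachment plaques, was at -0.49 and PPP1R12B, a subunit of myosin phosphatase, at -0.45 (adjusted p 0.179 and 0.16). The actin-binding proteins TAGLN and CNN1 were at -0.01 and -0.22, neither below an unadjusted p of 0.05. Of 27 ion channel and pump genes, 1 (3.7%) was higher and 3 (11.1%) lower at an unadjusted p under 0.05, beside 5.96% and 10.7% of all genes. ABCC9 and KCNJ8, which together form the vascular ATP-sensitive potassium channel, were at -0.62 and -0.33 (adjusted p 0.263 and 0.26).

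Structural matrix genes were nearly level. Of 50 basement membrane and fibrillar matrix genes, 3 (6%) were higher and 1 (2%) lower at an unadjusted p under 0.05. The shares over all genes were 5.96% and 10.7%. The collagens COL1A1 and COL3A1 were at -0.01 and 0.00. Of 35 matricellular and protease genes, 8 (22.9%) were higher at that p, SPP1 among them, and 0 lower, and the median was 0.02. POSTN, the matricellular protein periostin, ran from 9.29 to 10.37 in lean pigs and was at 12.37, 12.71, 10.91, 11.29 and 11.06 in obese pigs, with groups apart and a difference of 1.63 (SE 0.35, adjusted p 0.104). The plasminogen activator PLAU and its receptor PLAUR differed by 0.88 and 0.48 (adjusted p 0.182 and 0.209). S100A4, a calcium-binding protein of motile cells, differed by 1.92 (SE 0.47, adjusted p 0.134).

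Of 28 endothelial genes, 6 (21.4%) were higher at an unadjusted p under 0.05, against 5.96% of all genes, and 1 was lower, with a median of 0.13. In the fit of all tissues with the pig as a replicate block, 1 was higher. The angiopoietin receptor TEK differed by 0.40 and the fenestral protein PLVAP by 0.59 (adjusted p 0.162 and 0.222), while the nitric oxide synthase NOS3 was at 0.12 and PECAM1 at 0.16. LYVE1, a hyaluronan receptor of lymphatics and some macrophages, was at -0.60 (adjusted p 0.271). Of 24 vasoactive genes, 2 were higher and 2 lower at an unadjusted p under 0.05 (8.33% each), beside 5.96% and 10.7% of all genes. DDAH1, which degrades an inhibitor of nitric oxide synthesis, ran from 7.73 to 8.11 in lean pigs and was at 8.63, 9.16, 8.28, 8.50 and 8.59 in obese pigs. The groups were apart, with a difference of 0.68 (SE 0.14, adjusted p 0.102). AGTR1, the type 1 angiotensin receptor, ran from 9.03 to 9.44 and was at 8.13, 7.92, 8.91, 8.99 and 8.70, also apart, with a difference of -0.67 (SE 0.19, adjusted p 0.173). Endothelin, EDN1, was at 0.36 (adjusted p 0.356).

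Counts in the smaller groups that follow are at an unadjusted p under 0.05, beside 5.96% higher and 10.7% lower of all genes. Iron and heme genes had 5 of 12 higher (41.7%) and 1 lower (8.33%). The ferritin chains FTL and FTH1 differed by 0.32 and 0.18 (adjusted p 0.232 and 0.206), the heme oxygenase HMOX1 by 0.62 and the transferrin receptor TFRC by 0.74 (adjusted p 0.216 and 0.228). Clock genes had 4 of 13 lower (30.8%) and 0 higher. The repressor CRY2 was at -0.51 (adjusted p 0.134), PER2 at -0.49 and the output factor HLF at -0.73 (adjusted p 0.255 and 0.201). The hour of death is not used here. Of 28 insulin and glucose handling genes, 5 (17.9%) were lower and 0 higher. The insulin receptor INSR was at -0.37 (adjusted p 0.182) and the AMP kinase subunit PRKAA2 at -0.49 (adjusted p 0.224). Of 14 positional transcription factors, 2 (14.3%) were higher and 5 (35.7%) lower. HOXA10 was at 0.34 (adjusted p 0.106) and the cardiac factor GATA4 at -0.42 (adjusted p 0.173). C4BPA, a brake on complement, differed by 1.40 (SE 0.25, adjusted p 0.069), with lean pigs from 10.10 to 10.88 (median 10.59), obese pigs at 12.78, 12.20, 11.31, 11.51 and 11.73, and groups apart. Complement C3, named only by the platform annotation, differed by 1.29 (adjusted p 0.102). The list of complement and coagulation had 1 of 18 higher and 1 lower (5.56% each). C3 is not counted there, since the lists held only genes with a deposited symbol.

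The largest negative differences outside the sterol genes had few members in common. MYOC, the secreted glycoprotein myocilin, ran from 8.26 to 8.85 (median 8.72) in lean pigs and was at 7.93, 7.37, 7.66, 8.14 and 7.95 in obese pigs, with groups apart. Its difference was -0.83 (SE 0.15, adjusted p 0.069). The muscle carbonic anhydrase CA3 was at -1.46 (SE 0.51, adjusted p 0.214) with obese pigs mostly below 6.64, which is an intensity of 100 before the log, so no fold is given. The junction scaffold INADL was at -0.84 (adjusted p 0.227) with overlapping groups. One of the 2 RHOC probe sets, for a small GTPase, differed by 1.43 (adjusted p 0.0921) and the brighter one by 0.13 (adjusted p 0.452), so its probe sets disagreed.

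Counts in broad housekeeping families are given beside the 10.7% of all genes that were lower at an unadjusted p under 0.05. Cytosolic ribosomal protein genes had 9 of 70 lower (12.9%) and 0 higher, with a median of -0.06 and, with each array centred, 1 lower and a median of -0.03. Without pig 57, 4 were lower, without pig 81 11, and in the fit of all tissues with the pig as a replicate block 12. In 8 of the 70 every obese pig was below every lean pig, against 1.42% of all genes. Mitochondrial ribosomal genes had 9 of 67 lower (13.4%), translation factors 10 of 54 (18.5%) and zinc finger genes 16 of 74 (21.6%). With centring the counts of the last 3 families became 6, 6 and 7 lower, and 2, 9 and 4 in the fit of all tissues with the replicate block. The 10.7% belongs to the main fit. Of all 6694 genes, 431 were lower with centring, 534 without pig 57, 943 without pig 81 and 289 in the replicate block fit. Over all tested genes the median moved from -0.05 to -0.02. Of 73 oxidative phosphorylation genes 1 was lower (1.37%). Actin regulators and tubulins had 12 of 63 higher (19%, beside 5.96% of all genes) and 8 lower (12.7%).

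The same diets were set side by side in the other tissues of these pigs. In PVAT and in TA 0 probe sets passed, and 29 (0.289%) did in TA without the obese array of pig 57, which stood apart from the rest of the TA arrays by more than 2 log2 units at 824 probe sets. By limma without adjustment, 90 genes were higher in PVAT and 265 in TA at p under 0.05. Whether the LAD differed from another tissue was tested on the within-pig difference, so both tests share the LAD arrays. For LAD minus TA, 0 of 10029 probe sets passed. By limma without adjustment, 201 were positive (2%) and 169 negative (1.69%) at p under 0.05. For LAD minus PVAT, SMPDL3A alone passed (0.00997%). Its diet difference was larger in the LAD by 3.94 (SE 0.36, limma adjusted p 0.00142). In PVAT it was 0.21 (SE 0.44) and in TA 3.0 (SE 0.96), and LAD minus TA was 1.08 (SE 0.78, adjusted p 0.999). Pigs 51, 55 and 57 had a 28S to 18S ratio under 0.8 in LAD or PVAT. Without them, which left only pigs 81 and 85 as obese, the LAD minus PVAT value was 4.25 (limma adjusted p 0.0584). In 1 fit of all tissues with the pig as a replicate block its adjusted p was 0.617. Without pig 57, 7 probe sets passed for LAD minus TA and 3 for LAD minus PVAT. Without pig 81, 3 passed for LAD minus PVAT.

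Macrophage genes had a median difference of 1.52 in LAD, 0.13 in PVAT and 0.25 in TA, or 0.26 in TA without pig 57. By the within-pig test 13 of 21 were larger in LAD than in TA at an unadjusted p under 0.05 (2.12% of all genes) and 17 of 21 larger than in PVAT (3.23%), with 0 passing in either. C1QA was at 1.61 in LAD and 0.08 in TA, and the C1q chains C1QB and C1QC at -0.09 and 0.10 in TA. CYBB had a LAD minus TA value of 1.55 (SE 0.22, adjusted p 0.126). APOE was at 2.73 in LAD, -0.75 in TA (0.03 without pig 57) and -0.43 in PVAT, with a LAD minus PVAT value of 3.17 (SE 0.53, adjusted p 0.2). C4BPA was at -0.30 in TA and 0.22 in PVAT. CXCL14, in contrast, was at 3.02 in TA on the probe set that passed in LAD and at -0.15 in PVAT. LYZ, SPP1 and GPNMB were at 2.57, 1.55 and 2.55 in TA and at 0.62, 0.08 and 0.41 in PVAT. In TA the macrophage list mean was 10.46 and 10.39 in obese pigs 51 and 55, and 9.02 to 9.48 in the other obese pigs, against 9.12 to 9.37 in lean pigs. The 28S to 18S ratio in TA was 1.28, 1.29, 2.14, 0.61 and 0.57 in obese pigs 51, 55, 57, 81 and 85. In lean TA the ratio ran from 1.17 to 1.54. Its part in the TA values was not tested.

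Interferon genes had medians of 0.55 in LAD, 0.61 in PVAT and 0.43 in TA. In PVAT 17 of 20 were higher at an unadjusted p under 0.05 (1.34% of all genes), and in TA 10 of 20 (3.96%). LAD minus TA had 0 of 20 at that p in either direction (1.64% of all genes negative), and LAD minus PVAT 1 in each direction (2.94% negative). ISG15 was at 1.34, 1.21 and 1.37 in LAD, PVAT and TA. CPT1A was at 0.75, 0.84 and 0.75. Sterol genes had medians of -0.31, -0.55 and -0.16, or -0.44 in TA without pig 57. The median of fatty acid synthesis genes was 0.01 in LAD and -0.68 in PVAT, where FASN was at -2.02 and SCD at -1.59. By the within-pig test, LAD minus PVAT was positive for 8 of 17 at an unadjusted p under 0.05 (3.23% of all genes). For SCD that test gave 2.43 (SE 0.55, adjusted p 0.538).

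**Figure D5:**
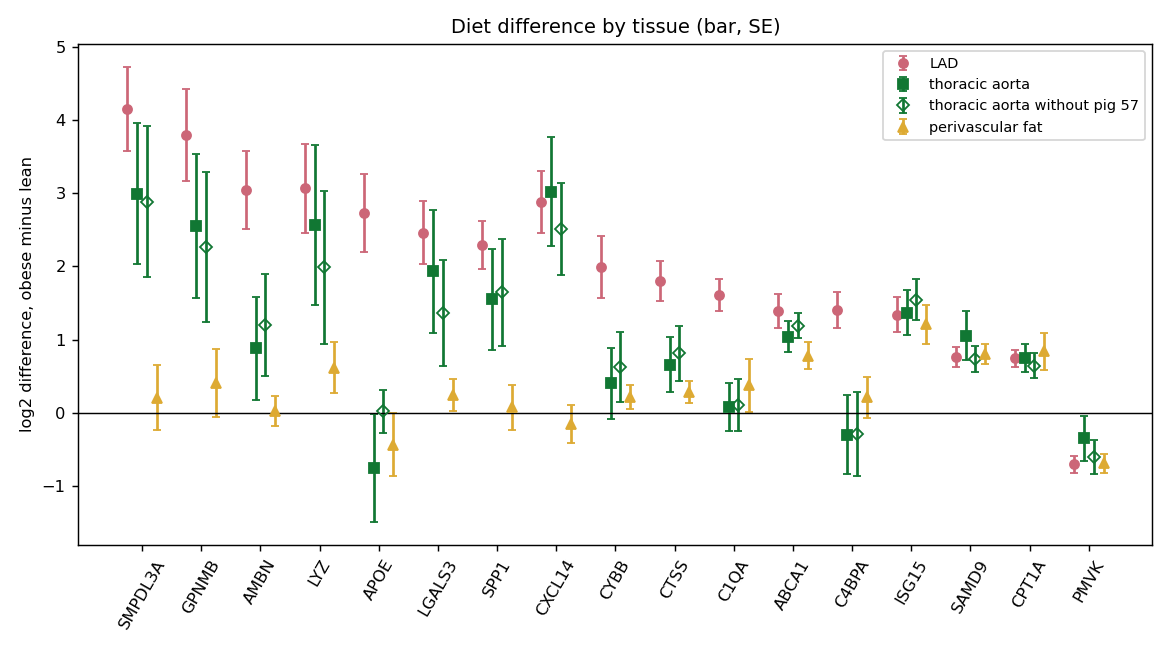
Log2 difference, obese minus lean, with SE, of 17 genes in LAD, thoracic aorta (with and without pig 57) and perivascular fat. SMPDL3A is at 4.15 in LAD, 3.0 in aorta and 0.21 in fat, APOE and C1QA lie near or below 0 in aorta, and ISG15 is at 1.34 in LAD, 1.37 in aorta and 1.21 in fat.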

How the data were processed

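RNA of 32 tissue samples was hybridised to Affymetrix porcine arrays. The authors deposited 1 table of log2 signals per probe set, made with the affy package per the submitters' processing notes. Their background correction and normalization were not given in the sources used here. Signals lay between 2.4 and 14.52, with medians per array of 8.32 to 8.56. Array data carry no counts, so the number of pigs limits the precision. Gene names came from the deposited pig-to-human symbol table (11602 probe sets, 8390 symbols, with 28 symbols turned into calendar dates set aside). Where it gave none, the platform annotation was used and is named as such. Of 6488 probe sets with 1 symbol from both, 87.9% had the same.

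From the deposited log2 values, the lowest 30% of probe sets by mean over all arrays were left out. A 2-group model of the 11 LAD arrays was fitted with limma 3.58.1 in R 4.3.3, with Benjamini-Hochberg adjustment over 10029 probe sets. The code was run on simulated arrays with independent noise at each probe set. Those arrays lack the shared order of pigs and the RNA quality of the real ones. The check therefore cannot show how far the calls hold. Differences between tissues were fitted to each pig's LAD minus TA (10 pigs) or LAD minus PVAT (11 pigs) values, paired by the pig numbers in the labels. A gene counted once, by its brightest probe set. Genes named only by the platform annotation, such as GPNMB, ACTA2 and C3, were not counted in the lists. Folds were given only where both means reached the log2 of 100.

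Named genes were those with an adjusted p under 0.1, the 12 largest differences in each direction, up to 4 members per list by p, and a fixed set. Further list members were named after their values were seen. The samples compared and all lists were chosen with earlier results of these data known, so no list was tested. CD68 and MYH7 were below the filter or not measured. Some genes of these lists are counted but not reported singly here. Alternatives were other filters, scalings, covariates, blocks, weights and leaving out each pig.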

Additional observations from a re-analysis of the deposited data

Results flagged for a closer look

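For each named gene, the highest and lowest pig of each diet was compared with the others by Dixon's test of the gap over the range. Of 266 groups, 12 had such a pig, and chance gives about 1 in 20, or 13.3. Lean pig 63 accounted for 5. Its PLA2G7 signal was 8.94 against 6.37 to 6.87 in the other lean pigs, its TFRC signal 10.60 against 9.18 to 9.48, and its PRKAA2 signal 10.84 against 9.92 to 10.21. Its smooth muscle genes MYH11 and CNN1 were lowest, at 14.23 against 14.36 to 14.43 and 12.92 against 13.43 to 13.66. Pig 63 also had the highest heart muscle mean, 12.38, and the lowest lean 28S to 18S ratio, 1.13, and their part in these values was not tested.

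Among the other lean pigs, PMVK was 7.88 in pig 56 against 8.41 to 8.60, HLF was 11.11 in pig 80 against 10.08 to 10.45, and HMOX1 was 7.93 in pig 86 against 8.10 to 8.14. Among obese pigs, ACACA was 9.09 in pig 55 against 8.54 to 8.65, and PECAM1 was 8.81 in pig 51 against 9.16 to 9.23. In pig 57, MVD was 9.07 against 8.70 to 8.79 and CD63 was 12.62 against 12.97 to 13.03. The diet difference of SMPDL3A was larger in the LAD than in PVAT by 3.94, by the within-pig limma test described above.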

How the results depend on the processing

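The count of probe sets passing in the LAD was 4 and depended on the setting. It was 0 with no filter on low values, with the lowest 50% left out, with the 28S to 18S ratio or the heart muscle mean as a covariate, and without the obese arrays of low ratio. It was 9 with sacrifice date as a block (5 higher, 4 lower, with 3 of the 4 main probe sets still passing and CXCL14 not), 116 with array weights, 69 in 1 fit of all tissues with no replicate block and 90 with the pig as a replicate block. Leaving out each pig gave 0 to 106. At an unadjusted p under 0.05 the main count was 551 higher and 1169 lower. For LAD minus TA the count was 0, and became 4 with the ratio as a covariate and 15 with array weights, and 0 to 7 leaving out each pig. For LAD minus PVAT it was 1, and became 0 with the lowest 50% left out, without the low-ratio arrays, and in the fits of all tissues with and without the replicate block. Leaving out each pig gave 1 to 3. The correlation of arrays of a pig in the block fit was 0.076. The cause of these moves was not tested. Of 134 named differences, 123 kept their direction in all alternatives run, 0 passed with the opposite sign, and 58 passed in at least 1 alternative. The 11 that changed sign were those of ACACA, ACTA2, COL1A1, COL3A1, CXCL12, CXCL2, FOLR2, HSD17B7, INSIG1, PSME1 and TAGLN, none of which passed in the main test. With 5 against 6 pigs and signal as the only measure, small differences were not detectable.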
